A study of Mus musculus with 24 samples.

Results

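Gingiva was compared between ovariectomized mice given estradiol and ovariectomized mice given vehicle, all with ligature-induced periodontitis. The libraries were chosen by their titles alone: 4 of ovariectomy with estradiol (OVXE2) and 4 of ovariectomy with vehicle (OVX), which makes 8 of the 24 libraries of the study. All were poly(A) RNA-seq libraries of wild-type C57BL/6J females that were 11 weeks old at the start. In OVXE2 both ovaries were removed on day 0, and 1 µg of estradiol benzoate a day in 100 µL of corn oil was injected under the skin from day 4. OVX mice had the same surgery and received vehicle from day 4. In every group a silk thread was tied around the second upper molar of both sides on day 7, and the gingiva around the upper molars was taken on day 14. The gingiva of sham-operated, vehicle-treated mice with the same ligature (Sham, 4 libraries) gave a level for each gene beside both groups. Sham also entered the estimate of the spread. The dentoalveolar complex (DAC, the jaw bone and teeth left once soft tissue was taken off) of OVXE2 and OVX was used in the last comparison. No group without a ligature was analysed here, so all values are those of inflamed tissue. Replicates are labelled as biological, without a statement of whether each library is 1 mouse or whether gingiva and DAC were taken from the same animals. P-values then measure the spread between these libraries.

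Estradiol enters cells and binds the nuclear receptors ERα (Esr1) and ERβ (Esr2), which switch genes on or off at estrogen response elements or through other transcription factors. In the reproductive tract the progesterone receptor gene (Pgr) is a classical target. Gingiva is a keratinized oral epithelium on collagen-rich connective tissue. A ligature around a tooth retains bacteria and draws neutrophils, macrophages and T cells into it, and T cells and fibroblasts of inflamed gingiva can make RANKL, which drives bone-resorbing osteoclasts. Interferon gamma from T and NK cells acts through transcription factors such as IRF1 and switches on chemokines and guanylate-binding proteins.

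The tissue matched its label: Krt13, the keratin of stratified oral epithelium, took the largest share of counts in all 12 gingiva libraries (4.886 to 7.775%), and fibroblast collagens were abundant. Total gene counts ran from 23949070 to 24463247 in OVXE2, from 18598422 to 24070492 in OVX and from 19992438 to 26001342 in Sham. Transcripts of neighbouring tissues differed between libraries. The 38 tested genes of a skeletal muscle list were higher in OVXE2 by the median, 37 of the 38 with a log2 change above 0 (median 1.38), and none passed the test. In 2 the groups did not overlap, and in 24 without OVX 3 and 19 without OVXE2 3. Separation is easier with fewer libraries. All OVXE2 values lay above all OVX values in 401 of all genes with every library, and in 325 to 1435 over 25 other edgeR settings. Muscle genes together took 0.986, 0.497, 0.344 and 0.979% of counts in OVXE2, against 0.170, 0.218, 0.476 and 0.274% in OVX, and 0.101 to 0.400% in Sham. A list of salivary and nasal gland genes, led by the mucin Muc5b, took 0.400, 0.257, 1.15 and 0.919% in OVXE2 and 0.444, 0.102, 0.200 and 0.497% in OVX. Gene reads on the strand that was not counted made up 4.05, 3.82, 6.83 and 9.03% in OVXE2 and 6.59, 8.47, 7.63 and 3.81% in OVX. Both OVXE2 1 and OVXE2 4 were richest in muscle, and OVXE2 1, OVXE2 2, OVX 4 and Sham 3 had the lowest other-strand shares. Some results are given below also with muscle level added to the fit, or without those 2 libraries, both chosen after the data were seen. Without those 2 libraries the median log2 change of the gland list was 0.32, against 0.56 with all libraries. In bulk tissue, fewer cells of a type and less RNA per cell cannot be told apart.

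**Figure D1:**
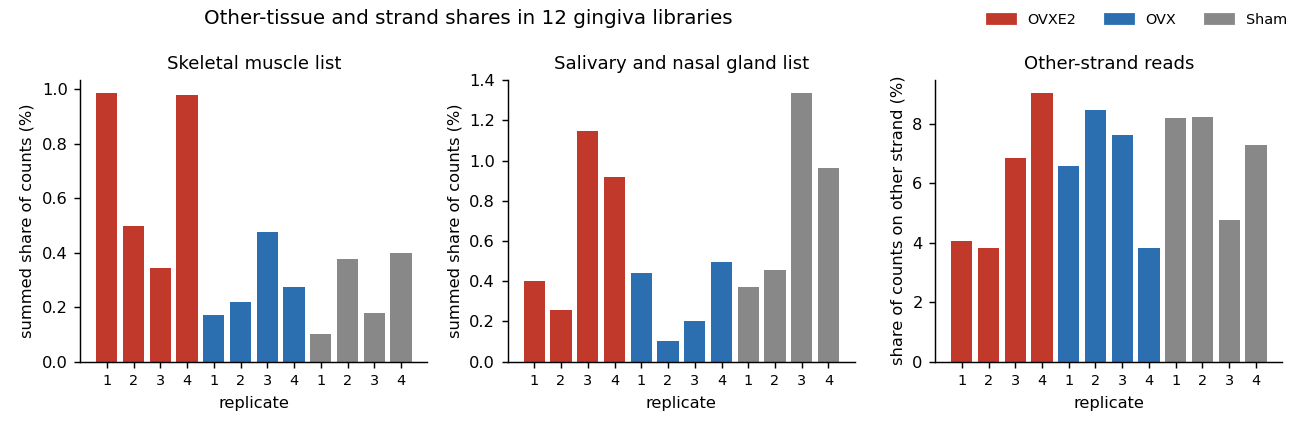
Share of all gene counts held by a skeletal muscle list (left) and a salivary and nasal gland list (middle), and share of reads on the other strand (right), in percent, for each gingiva library (bars; 4 replicates of OVXE2, OVX and Sham). Muscle reached 0.986 and 0.979% in OVXE2 1 and OVXE2 4 and at most 0.476% in OVX.

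No gene passed the test between OVXE2 and OVX at a Benjamini-Hochberg adjusted p under 0.05. Of 12680 genes tested with edgeR's quasi-likelihood test, 0% passed in either direction, and the smallest adjusted p was 0.108. At an unadjusted p under 0.05 there were 954 higher genes (7.52%) and 812 lower ones (6.4%). Both directions together, these were 1766 genes. With muscle level in the fit there were 777, and without the 2 muscle-richest libraries 1083. Without the 4 libraries of low other-strand share there were 961. These settings were chosen after the data were seen. Fewer libraries also lower the power, and the cause of the lower counts was not tested. All 4 OVXE2 values lay above all 4 OVX values in 401 genes (3.16%) and below them in 370 (2.92%). The median log2 change over all genes was -0.005. DESeq2, listed as an alternative, called 52 genes higher (0.443%) and 46 lower (0.392%) on the same counts. Without OVX 3, edgeR called 11 higher (0.0857%) and 49 lower (0.382%). Since nothing passed, the sections below give levels, differences with 95% confidence intervals, and counts of list members whose groups do not overlap. The intervals are per gene and not adjusted for the number of genes tested. Many of the genes shown were picked by small p, so their differences may be overstated. An interval that leaves out 0 is therefore not a pass. Counts from all libraries are to be read against the 3.16% and 2.92% of all genes. Groups separate more easily with fewer libraries, so these shares do not apply to counts with libraries left out. Over 25 other edgeR settings, 325 to 1435 of all genes lay above and 337 to 1262 below.

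**Figure D2:**
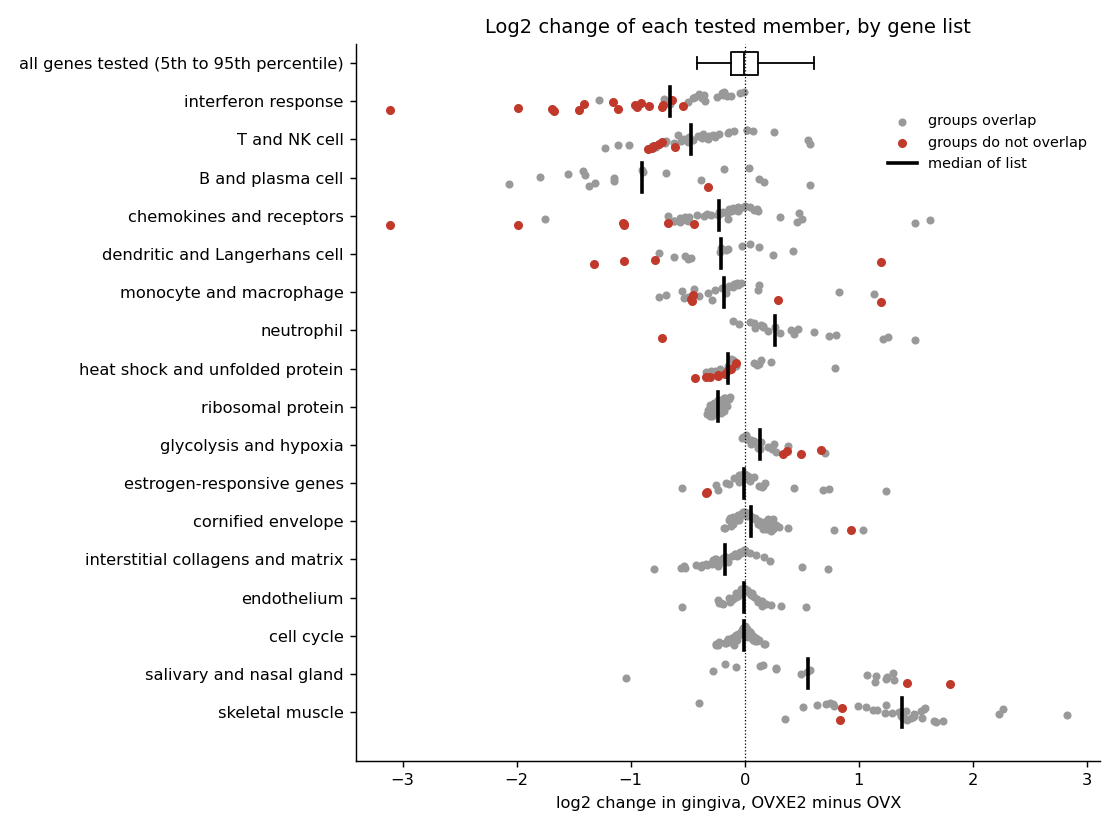
Log2 change between OVXE2 and OVX (x axis) of each tested member of 17 gene lists (y axis), 1 point per gene. Red points are genes whose 4 OVXE2 values lie all above or all below the 4 OVX values, black bars are list medians, and the box at the top shows the quartiles of all 12680 genes with whiskers at the 5th and 95th percentiles. The interferon response list lies wholly below 0, and the skeletal muscle list lies above 0 with 1 exception.

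Interferon-inducible genes were lower in OVXE2 gingiva than in OVX gingiva. All 35 tested members of an interferon response list had a log2 change below 0, where 51.1% of all genes did, and the median was -0.66. In 16 members (45.7%, against 2.92% of all genes) every OVXE2 value lay below every OVX value, and in none above. None passed edgeR's test (0% of all genes did). DESeq2 called 14 of the 35 lower, where it called 0.392% of the 11726 genes it gave an adjusted p. Across 25 other edgeR settings the number of members without overlap ran from 16 to 22. Over all genes the number below ran from 337 to 1262. Leaving out libraries makes separation easier, and several settings do not change CPM, so this range tests the separation only in part. With muscle level in the fit, which leaves CPM and so the overlap unchanged, the median was -0.69.

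The chemokines that attract CXCR3-bearing T cells differed most. Cxcl9 (ENSMUSG00000029417, chromosome 5, 92321347 to 92328079, GRCm38) stood at 7.12, 5.07, 1.89 and 4.54 CPM (counts scaled to a common library size) in OVXE2, against 58.8, 33.0, 27.2 and 41.8 CPM in OVX. The highest OVXE2 library was far below the lowest OVX library, and Sham, at 5.70 to 21.5 CPM, lay below every OVX library and partly within OVXE2. The log2 change was -3.11 ± 0.51 (SE; 95% interval -4.24 to -1.99; edgeR adjusted p = 0.144). Cxcl10, a second ligand of CXCR3 (ENSMUSG00000034855, chromosome 5, 92346638 to 92348889), had 5.71, 4.99, 1.85 and 4.66 CPM in OVXE2 and 19.5, 16.1, 11.1 and 21.5 CPM in OVX. Its groups did not overlap either, with a log2 change of -1.99 ± 0.41 (SE) and an edgeR adjusted p of 0.21; Sham had 2.88 to 10.3 CPM. The gene of the receptor, Cxcr3, differed by -0.54 with overlapping groups.

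Among the GTPases that interferon gamma induces against intracellular microbes, Gbp2, a guanylate-binding protein (ENSMUSG00000028270, chromosome 3, 142620602 to 142638008), had 18.5, 22.2, 15.1 and 19.4 CPM in OVXE2, against 83.2, 45.5, 59.2 and 51.6 CPM in OVX. Every OVX library held more than any OVXE2 or Sham library, the last at 18.7 to 37.5 CPM. The log2 change was -1.67 ± 0.27 (SE; 95% interval -2.25 to -1.09; edgeR adjusted p = 0.136). Igtp, an immunity-related GTPase (chromosome 11, 58199556 to 58207591), had 6.17, 8.73, 4.97 and 8.0 CPM in OVXE2 and 27.7, 13.3, 17.1 and 18.04 CPM in OVX, with a log2 change of -1.45 ± 0.26 (SE) and an edgeR adjusted p of 0.149. Ifi47, of the same GTPase family, averaged 5.75 ± 1.18 CPM in OVXE2 and 12.4 ± 1.34 CPM in OVX (SD, n = 4 each). Further members whose groups did not overlap were Tgtp1, Tgtp2, Irgm1, Irgm2, Gbp3, Gbp4, Gbp5, Gbp7, Ifi44 and the nucleic acid sensor Zbp1, with log2 changes between -0.64 (Ifi44) and -1.69 (Tgtp1). Tgtp1 and Tgtp2 are near-identical copies and the Gbp genes are close relatives. Reads that mapped to several places were assigned to no gene and left out, so these genes may have lost counts.

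Irf1, a transcription factor above these genes, differed less. It (chromosome 11, 53770014 to 53778374) stood at 27.4, 32.7, 23.9 and 30.6 CPM in OVXE2 and 43.9, 41.1, 39.9 and 42.1 CPM in OVX, without overlap and with a log2 change of -0.54 ± 0.13 (SE; edgeR adjusted p = 0.232). Of the antigen presentation genes outside the list, B2m, the light chain of MHC class I, averaged 288 ± 21.7 CPM in OVXE2 and 409 ± 64.4 CPM in OVX, and the immunoproteasome subunit Psmb10 averaged 14.7 ± 1.26 CPM in OVXE2 and 20.4 ± 2.97 CPM in OVX, both without overlap. The interferon gamma gene itself was near the limit of detection: Ifng had 3, 1, 2 and 3 counts in OVXE2, 6, 3, 6 and 5 in OVX and 7, 1, 5 and 5 in Sham. It was below the count filter, and a difference was not detectable at this depth. Among the list members whose groups overlapped, Isg15, a ubiquitin-like protein, differed by -1.27 with 4.06 to 6.25 CPM in OVXE2 and 4.75 to 22.9 CPM in OVX, Oas2 by -0.20 and the RNA sensor Ifih1 by less than 0.01 on the log2 scale.

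Beside Sham, the mean of OVXE2 was above that of Sham in 1 of the 35 members and the mean of OVX in 25 of 35, with both counts sharing the Sham libraries. No share over all genes is given beside these counts. The median log2 difference was -0.34 for OVXE2 minus Sham and 0.34 for OVX minus Sham. Members varied: OVXE2 minus Sham was -1.56 for Cxcl9 and -1.83 for Isg15. It was -0.09 for Irf1, -0.09 for Gbp4 and -0.17 for Ifi47, and none of these differences passed edgeR's test. Isg15 was uneven in Sham, at 4.99, 6.59, 47.0 and 17.2 CPM. Summed over the list, interferon genes took 0.0578, 0.0677, 0.0538 and 0.0614% of counts in OVXE2, against 0.0977, 0.0798, 0.0804 and 0.0783% in OVX, so every OVXE2 library lay below every OVX library.

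**Figure D3:**
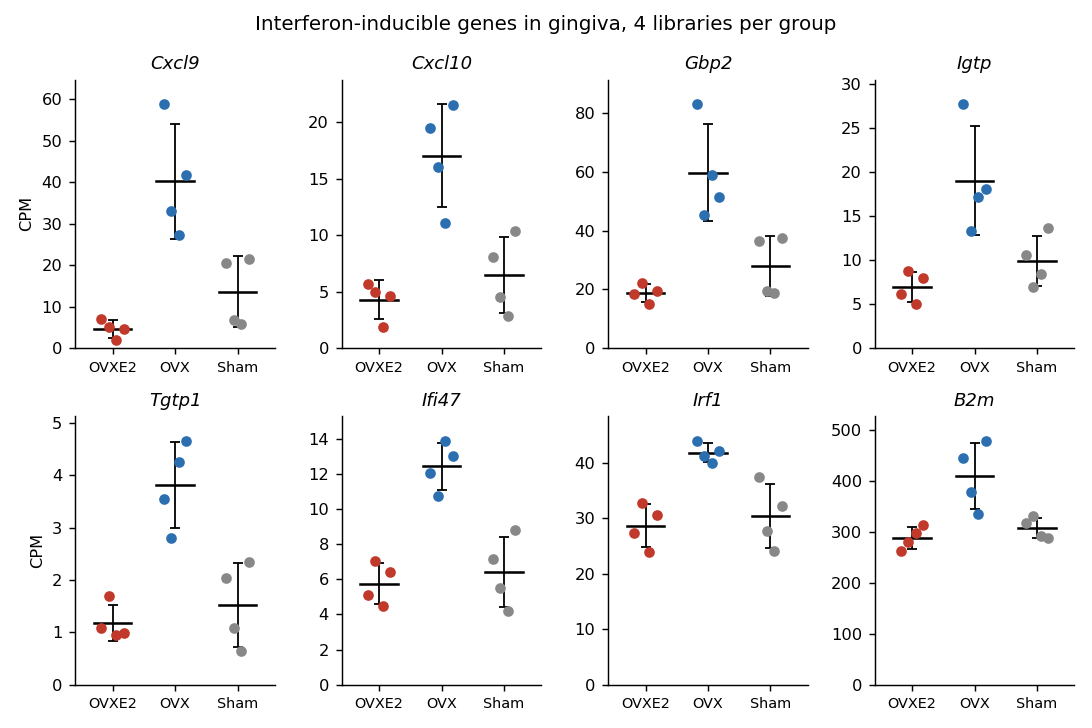
CPM (y axis) of 8 interferon-inducible genes in each gingiva library of OVXE2, OVX and Sham (points, n = 4 each), with the mean (bar) and SD (whiskers). In every panel the 4 OVXE2 points lie below the 4 OVX points, as for Cxcl9 with at most 7.12 CPM in OVXE2 and at least 27.2 CPM in OVX.

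Promoter sequences of the list were read beside these levels. For this, 2 motifs were searched on both strands of RefSeq windows (GRCm38.p6) from 250 bases before to 50 after each start: the interferon-stimulated response element GAAA, any 2 bases and GAAA again, bound by IRF factors, and the gamma-activated site TTCNNNGAA, through which interferon gamma acts. The motifs can share bases with each other. Of all 32851 windows, 3.44% held the first and 8.3% the second. By gene, 18 of the 29 list members with a window (62.1%) held the first motif, against 3.99% of all 27025 genes, and 11 (37.9%) the second, against 9.55%. Among the 14 non-overlapping members with a window, 10 held the first and 7 the second; among the 15 overlapping ones, 8 and 4 did. The members were listed as interferon-inducible genes, so more of these motifs than over all genes says nothing about estradiol. A match describes letters in the window and was not tested as a bound site. The windows of Gbp2, Igtp, Cxcl10 and Irf1 are shown as examples, among genes whose groups did not overlap, of windows with the first motif (Gbp2 and Cxcl10), both (Igtp) or the second (Irf1); capitals mark the matches, on whichever strand they lie.
Gbp2 promoter, chr3:142620413-142620712, plus strand: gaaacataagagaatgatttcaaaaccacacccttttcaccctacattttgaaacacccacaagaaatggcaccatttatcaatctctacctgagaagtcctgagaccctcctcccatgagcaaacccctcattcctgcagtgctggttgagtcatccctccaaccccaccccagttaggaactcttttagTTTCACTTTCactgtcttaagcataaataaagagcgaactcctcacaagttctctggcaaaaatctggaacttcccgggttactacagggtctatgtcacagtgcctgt
Igtp promoter, chr11:58199306-58199605, plus strand: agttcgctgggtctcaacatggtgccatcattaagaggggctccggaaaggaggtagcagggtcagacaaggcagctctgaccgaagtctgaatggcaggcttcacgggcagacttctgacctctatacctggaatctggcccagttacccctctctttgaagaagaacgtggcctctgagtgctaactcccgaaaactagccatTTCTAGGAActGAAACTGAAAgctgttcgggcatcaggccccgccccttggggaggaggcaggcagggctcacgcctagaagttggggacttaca
Cxcl10 promoter, chr5:92348840-92349139, minus strand: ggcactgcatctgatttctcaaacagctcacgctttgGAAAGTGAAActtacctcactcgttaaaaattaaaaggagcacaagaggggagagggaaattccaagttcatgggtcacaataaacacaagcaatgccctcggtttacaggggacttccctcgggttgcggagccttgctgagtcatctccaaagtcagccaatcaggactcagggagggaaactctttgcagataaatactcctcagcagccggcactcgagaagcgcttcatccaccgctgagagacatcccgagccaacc
Irf1 promoter, chr11:53769764-53770063, plus strand: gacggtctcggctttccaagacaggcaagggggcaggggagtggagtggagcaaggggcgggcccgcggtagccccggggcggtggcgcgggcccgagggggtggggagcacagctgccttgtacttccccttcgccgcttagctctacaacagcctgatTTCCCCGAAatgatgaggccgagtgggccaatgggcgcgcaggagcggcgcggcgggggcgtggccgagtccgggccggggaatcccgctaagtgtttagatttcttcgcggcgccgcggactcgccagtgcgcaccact
In Gbp2 the capitals read TTTCACTTTC, the first motif on the opposite strand, and in Igtp the second motif lies just before the first. The window of Cxcl9, the gene with the largest difference of the list, held neither.

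T and NK cell genes and several chemokines were also lower in OVXE2. Of 38 tested T and NK genes, 32 had a log2 change below 0 (median -0.47). In 6 (15.8%, against 2.92% of all genes) the groups did not overlap, all with OVXE2 below. Trac, the constant part of the T cell receptor alpha chain, had 1.61, 2.25, 1.68 and 1.99 CPM in OVXE2 and 4.06, 2.49, 3.66 and 3.37 CPM in OVX. Its groups did not overlap, at -0.85 ± 0.18 on the log2 scale (SE; edgeR adjusted p = 0.211). Klrd1, the NK receptor CD94, had 0.926 to 1.59 CPM in OVXE2 and 1.85 to 2.45 CPM in OVX. The killing protease gene Gzmb averaged 0.895 ± 0.163 CPM in OVXE2 and 2.09 ± 0.978 CPM in OVX (SD, n = 4 each), but OVX 2, at 0.848 CPM, lay within OVXE2. Cd8a and Cd8b1 differed by -1.01 and -1.11 with overlapping groups, and Cd3e by -0.33. Trdc of γδ T cells differed by 0.55 and the cytokine gene Il17a by 0.26 (95% interval -0.74 to 1.27), both with overlap. Without the 4 libraries of lowest other-strand share, the median of the list was -0.31, with 8 members below and 5 above without overlap. The number below was 15 without OVX 2, 11 without OVXE2 4 and 14 without the 2 muscle-richest libraries. Separation is easier with fewer libraries: over 25 other edgeR settings, 337 to 1262 of all genes lay below and 325 to 1435 above. These counts are therefore not read as a stronger difference of the list.

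Of 49 chemokines and their receptors 39 had a log2 change below 0 (median -0.22), and 7 (14.3%) did not overlap, all with OVXE2 below. Besides Cxcl9 and Cxcl10 they included Ccl5 and Ccr7, which guide T cells and dendritic cells, Ccl8, made by macrophages, and Cxcl16, a membrane-bound ligand of CXCR6. Ccl8 had 3.06, 3.66, 4.52 and 3.82 CPM in OVXE2, against 5.44, 8.64, 6.69 and 10.7 CPM in OVX. Its log2 change was -1.06 ± 0.23 (SE; edgeR adjusted p = 0.211). Cxcl16 averaged 34.9 ± 4.68 CPM in OVXE2 and 47.4 ± 5.13 CPM in OVX, with OVXE2 1 the lowest at 27.9 CPM. Cxcl9 and Cxcl10 belong to the interferon list too. Without OVX 1, 13 of the list lay below without overlap and 2 above. Across 25 other edgeR settings, 337 to 1262 of all genes lay below and 325 to 1435 above.

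Genes of dendritic cells and macrophages differed in both directions. Of 18 dendritic cell genes, 3 (16.7%) lay below OVX without overlap and 1 (5.56%) above. The number below was 7 without OVXE2 4, and 5 without either OVX 1 or OVX 3. Over all genes it ran from 337 to 1262 across 25 other edgeR settings. Cd209a, a lectin of monocyte-derived dendritic cells (chromosome 8, 3743397 to 3748984), had 1.08, 1.25, 1.03 and 1.59 CPM in OVXE2 and 2.16, 3.60, 4.21 and 2.45 CPM in OVX. The groups did not overlap, the log2 change was -1.32 ± 0.24 (SE; edgeR adjusted p = 0.144), and Sham, at 2.39 to 3.25 CPM, lay within OVX. Ccr7, the lymph node homing receptor of mature dendritic cells, averaged 1.00 ± 0.308 CPM in OVXE2 and 2.09 ± 0.525 CPM in OVX. Mgl2 (CD301b), a lectin of dermal dendritic cells and of macrophages of the alternative type (chromosome 11, 70130329 to 70137550), went the other way: 6.66, 5.72, 7.72 and 9.95 CPM in OVXE2, against 2.503, 3.29, 4.52 and 2.79 CPM in OVX. Its log2 change was 1.20 ± 0.24 (SE; edgeR adjusted p = 0.2), and all 4 OVXE2 libraries lay above every OVX and Sham library. Arg1, arginase, another gene of alternative macrophages that keratinocytes of stratified epithelia also make, averaged 1570 ± 133 CPM in OVXE2 and 1281 ± 98.9 CPM in OVX, without overlap.

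Over the whole macrophage list, 22 of 28 members had a log2 change below 0 (median -0.18), with 3 (10.7%) below without overlap and 2 (7.14%) above. Apoe, the lipid carrier of tissue macrophages, averaged 228 ± 9.79 CPM in OVXE2 and 313 ± 49.8 CPM in OVX (SD, n = 4 each), differing by -0.46 ± 0.11 on the log2 scale (SE; edgeR adjusted p = 0.234). The complement genes C1qa and C1qb, made by macrophages, differed by -0.53 and -0.47; C1qb had 26.1 to 31.0 CPM in OVXE2 and 31.1 to 49.8 CPM in OVX, which nearly touch. Lyz2, lysozyme, had 121 to 192 CPM in OVXE2 and 154 to 351 CPM in OVX. OVX 2 and OVX 4 were high and OVX 1 was low for C1qa, C1qb and Lyz2. The number of macrophage genes below without overlap was 11 without OVX 1 and 5 without OVXE2 2. Over all genes that number ran from 337 to 1262 across 25 other edgeR settings. Of 19 B and plasma cell genes 15 had a log2 change below 0 (median -0.90), and 1 (5.26%) lay below without overlap.

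Molecular chaperones were slightly lower in OVXE2. Of 27 heat shock and unfolded protein genes, 21 had a log2 change below 0 (median -0.14), and 9 (33.3%, against 2.92% of all genes) lay below OVX without overlap. Their range over 25 other edgeR settings was 4 to 18. It was 4 when no scaling factor was used and 18 without the 4 libraries of low other-strand share. Over all genes the range was 337 to 1262. Hsph1, the HSP110 co-chaperone (ENSMUSG00000029657, chromosome 5, 149614287 to 149636376), had 92.5, 98.5, 83.6 and 81.4 CPM in OVXE2, against 114, 121, 134 and 112 CPM in OVX and 110 to 117 CPM in Sham. OVXE2 lay below both other groups. The log2 change was -0.44 ± 0.07 (SE; 95% interval -0.59 to -0.28; edgeR adjusted p = 0.136). Hspe1, the mitochondrial chaperonin HSP10, averaged 86.8 ± 4.56 CPM in OVXE2, 107 ± 12.2 CPM in OVX and 89.1 ± 1.04 CPM in Sham (SD, n = 4 each). Hspb8, a small heat shock protein that estrogen induces in breast cancer cells, stood at 185 ± 8.15 CPM in OVXE2 and 234 ± 23.9 CPM in OVX. The HSP70 gene Hspa8, the HSP60 gene Hspd1 and the endoplasmic reticulum chaperone Calr differed by -0.23, -0.17 and -0.23, also without overlap. Cryab, a chaperone that muscle makes in large amounts, differed by 0.79 with overlap.

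The heat shock element (GAA, any 2 bases, TTC, any 2 bases, GAA), which HSF1 binds as a trimer, was searched in the same windows on both strands; overlapping copies within a window run together. It was found in 0.603% of all windows and in 0.662% of genes, in 4 of the 8 non-overlapping list members with a window, and in 0 of the 14 overlapping ones. Hspe1 and Hspd1 share 1 promoter between them, so their 2 matches are not independent. The split by overlap comes from these same data, and its relation to the motif was not tested. A match was not tested as a bound site either. In the Hsph1 window shown, the match lies 36 to 48 bases after the start. The Hsph1 and Hspe1 windows are shown, with the matches in capitals; that of Hspe1 holds overlapping copies.
Hsph1 promoter, chr5:149636287-149636586, minus strand: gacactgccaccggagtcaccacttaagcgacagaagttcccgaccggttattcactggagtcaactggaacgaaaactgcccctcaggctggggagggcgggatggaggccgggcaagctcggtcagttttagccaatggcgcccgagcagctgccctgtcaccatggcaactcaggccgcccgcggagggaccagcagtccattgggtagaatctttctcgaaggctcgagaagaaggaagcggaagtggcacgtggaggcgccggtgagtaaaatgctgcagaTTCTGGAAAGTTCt
Hspe1 promoter, chr1:55087898-55088197, plus strand: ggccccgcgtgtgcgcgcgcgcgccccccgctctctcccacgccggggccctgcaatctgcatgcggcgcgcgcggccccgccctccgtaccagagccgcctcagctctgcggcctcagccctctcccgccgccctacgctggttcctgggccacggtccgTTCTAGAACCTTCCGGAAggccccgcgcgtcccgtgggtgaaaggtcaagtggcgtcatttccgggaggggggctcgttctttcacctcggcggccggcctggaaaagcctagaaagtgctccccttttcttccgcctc

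Ribosomal protein genes were all slightly lower, and the count of separated genes rested on 1 OVX library. All 32 tested members had a log2 change below 0 (median -0.24, range -0.33 to -0.13), none passed, and in 0 of 32 did the groups separate. Summed over the list they took 3.504, 3.49, 3.615 and 3.893% of counts in OVXE2, against 4.549, 4.593, 3.463 and 4.116% in OVX and 3.577 to 4.017% in Sham. OVX 3 lay below every OVXE2 library, and the other OVX libraries lay above them. Without OVX 3, the groups separated in 31 of 32 members (9.61% of all genes lay below in that fit), edgeR called 10 of the 32 lower (0.382% of all genes), and the median was -0.35. For the metal-binding proteins Mt1 and Mt2, OVX 3 was again the lowest OVX library: Mt2 had 261 to 309 CPM in OVXE2 and 442, 430, 271 and 409 CPM in OVX, and both were called lower without OVX 3. With muscle level in the fit, the ribosomal median was -0.18.

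No gene of a glycolysis and hypoxia list passed the test. Of its 24 genes 22 had a log2 change above 0 (median 0.13, and 0.081 without the 2 muscle-richest libraries), and 4 (16.7%, against 3.16% of all genes) lay above OVX without overlap: Pdk1, Bnip3, Adm and Car9. Pdk1 (ENSMUSG00000006494, chromosome 2, 71873224 to 71903858), a mitochondrial kinase that inhibits pyruvate dehydrogenase, had 120, 108, 119 and 116 CPM in OVXE2, against 91.8, 93.6, 88.1 and 92.3 CPM in OVX. Sham, at 98.2 to 108 CPM, lay above OVX and reached the level of OVXE2 2. The log2 change was 0.34 ± 0.05 (SE; 95% interval 0.23 to 0.45), with the smallest adjusted p of all genes, 0.108, which it shared with Sv2b. Bnip3, a mitophagy receptor that HIF-1 induces, averaged 92.03 ± 9.49 CPM in OVXE2 and 65.4 ± 5.23 CPM in OVX (SD, n = 4 each). With muscle level in the fit the log2 change was 0.31 for Pdk1 and 0.56 for Bnip3.

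Glycogen enzymes varied with the muscle transcripts, whose part in these differences was tested only through the fits named here. Pgm1, phosphoglucomutase (chromosome 4, 99929414 to 99987294), had 104, 78.7, 80.3 and 99.3 CPM in OVXE2, against 58.2, 62.0, 61.2 and 62.0 CPM in OVX. The groups did not overlap, and the muscle-rich OVXE2 1 and OVXE2 4 were the highest. The log2 change was 0.57 ± 0.09 (SE; edgeR adjusted p = 0.113), 0.44 with muscle level in the fit and 0.38 without the 2 muscle-richest libraries. Glycogen synthase, Gys1, differed by 0.71, and by 0.37 with muscle level in the fit. The insulin-regulated glucose transporter Slc2a4 differed by 1.105 and the kinase Pdk4 by 1.42, but by 0.31 and 0.37 with it. Of the muscle genes, the enolase Eno3 had 270, 105, 72.0 and 185 CPM in OVXE2 and 31.8, 39.0, 77.5 and 49.2 CPM in OVX, so OVXE2 3 lay below OVX 3. The median of the muscle list was 0.63 without the 2 richest libraries and 0.05 with muscle level in the fit. The lipid genes Insig1, which holds back cholesterol synthesis, and Acacb, which makes malonyl-CoA at mitochondria, lay above OVX without overlap, at 0.60 and 1.15; with muscle level in the fit they were 0.57 and 0.50.

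A few single genes had small p-values without a list. Sv2b, a synaptic vesicle glycoprotein (ENSMUSG00000053025, chromosome 7, 75114894 to 75309262), had 1.82, 2.01, 1.15 and 1.63 CPM in OVXE2, against 0.302, 0.371, 0.542 and 0.333 CPM in OVX and 0.319 to 0.683 CPM in Sham. All OVXE2 libraries lay above all others, at a low level. The log2 change was 2.08 ± 0.31 (SE; 95% interval 1.42 to 2.75; edgeR adjusted p = 0.108). It was 1.52 with muscle level in the fit and 2.02 without the 2 muscle-richest libraries. Wfdc3, a small secreted protein with protease inhibitor folds, had 0.717 to 1.03 CPM in OVXE2 and 0.181 to 0.389 CPM in OVX. Car2, carbonic anhydrase 2, had 17.8 to 24.04 CPM in OVXE2 and 11.3 to 14.3 CPM in OVX, and the choline ester hydrolase Bche had 16.02 to 19.5 CPM in OVXE2 and 10.2 to 12.6 CPM in OVX. Spef1, which bundles microtubules in cilia and epithelial cells, was lower, at 24.7 to 27.7 CPM in OVXE2 and 32.9 to 36.7 CPM in OVX; its log2 change was -0.41 ± 0.07 (SE; edgeR adjusted p = 0.144).

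**Figure D4:**
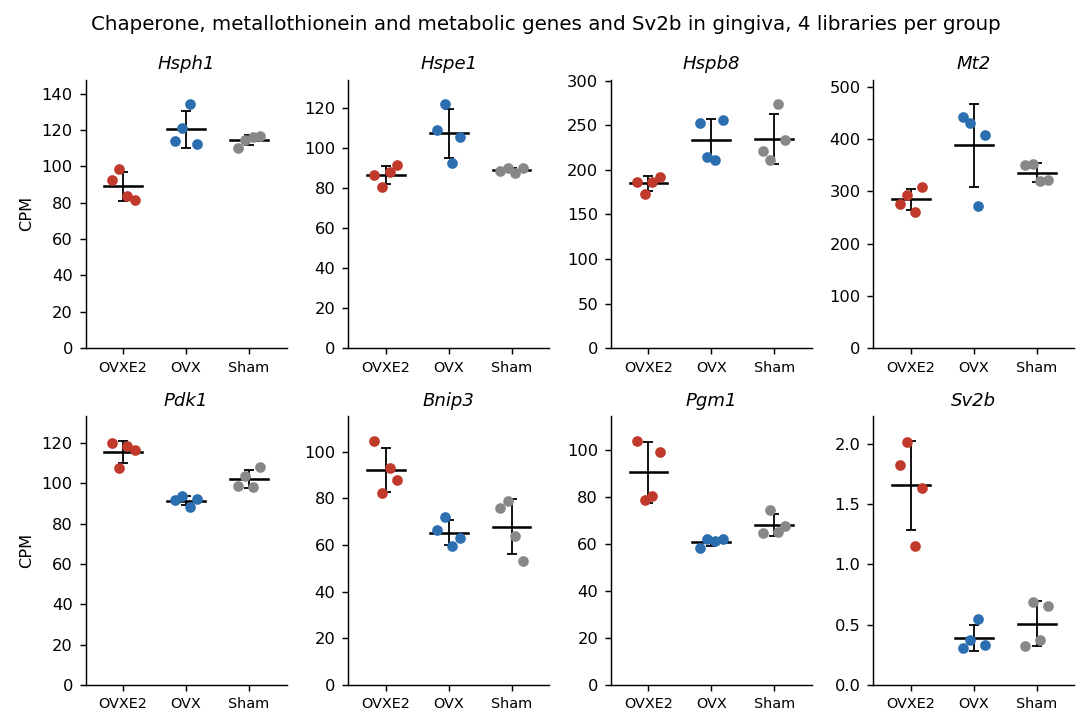
CPM (y axis) of chaperone, metallothionein and metabolic genes and of Sv2b in each gingiva library of OVXE2, OVX and Sham (points, n = 4 each), with the mean (bar) and SD (whiskers). The groups OVXE2 and OVX overlap for Mt2, where OVX 3 stands at 271 CPM, and do not overlap in the other panels.

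Among the steroid receptors, no gene passed the test or separated the groups. Pgr, whose transcription estradiol drives in the uterus (chromosome 9, 8899833 to 8968611), had 30.2, 20.2, 26.9 and 25.4 CPM in OVXE2, against 23.6, 18.3, 24.2 and 24.6 CPM in OVX. The groups overlapped, and the log2 change was 0.18 ± 0.19 (SE; 95% interval -0.24 to 0.60; edgeR adjusted p = 0.706). Esr1 averaged 3.32 ± 0.475 CPM in OVXE2 and 3.17 ± 0.850 CPM in OVX (SD, n = 4 each), with a 95% interval of -0.42 to 0.55 around 0.07. The membrane receptor Gper1, near 1 CPM, differed by -0.26 (95% interval -0.96 to 0.43). The mineralocorticoid receptor Nr3c2 differed by 0.67, with OVX 3, at 4.66 CPM, inside OVXE2 (3.50 to 5.01 CPM). With muscle level in the fit the log2 change was 0.25 for Nr3c2 and 0.018 for Pgr. The list held 6 tested genes. Esr2 and Greb1 were not analysed here.

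Estrogen-responsive genes of other tissues were split. Of 28 tested, 14 had a log2 change above 0 and 14 below (median -0.005, as over all genes), with 2 below without overlap (7.14%) and none above. The 2 were Hspb8 and Tfap2c, an AP-2 factor of epithelia, at 66.3 to 81.3 CPM in OVXE2 and 84.0 to 113 CPM in OVX. Stc2, a secreted glycoprotein induced by estrogen in breast cancer cells, had 15.6, 9.02, 24.6 and 18.3 CPM in OVXE2 and 9.71, 3.44, 7.10 and 8.23 CPM in OVX. OVXE2 2 lay just below OVX 1, OVXE2 3 was highest and also had the largest gland share of its group, whose part was not tested, and the log2 change was 1.24 ± 0.42 (SE; 95% interval 0.32 to 2.15; edgeR adjusted p = 0.304). The coactivator Ncoa2 averaged 112 ± 10.3 CPM in OVXE2 and 91.7 ± 13.5 CPM in OVX. The full estrogen response element (GGTCA, any 3 bases, TGACC), searched on both strands in the same windows, was found in 0.07% of them and in none of Pgr, Stc2, Esr1, Pdk1 and Sv2b.

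In the epithelium, no gene passed the test, and most basal cell markers were slightly lower. Krt13 stood at 54130 ± 5733 CPM in OVXE2 and 57140 ± 4634 CPM in OVX, differing by -0.08 on the log2 scale (95% interval -0.35 to 0.19). Of 12 basal keratinocyte genes 10 had a log2 change below 0 (median -0.07) and 3 (25%) lay below without overlap: Igfbp3, which binds insulin-like growth factors, the growth factor Bmp7 and the keratin Krt15. Krt15, a marker of quiescent basal cells, had 228, 235, 316 and 327 CPM in OVXE2, against 371, 364, 529 and 601 CPM in OVX, with Sham at 299 to 660 CPM. Igfbp3 averaged 380 ± 53.3 CPM in OVXE2 and 540 ± 91.2 CPM in OVX, differing by -0.51 ± 0.15 on the log2 scale (SE; edgeR adjusted p = 0.299), and by -0.33 with muscle level in the fit.

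Of 60 cornified envelope genes 35 had a log2 change above 0, and Sprr2a1 alone (1.67%) lay above OVX without overlap, at 2.96 to 4.79 CPM in OVXE2 and 1.81 to 2.74 CPM in OVX. The crosslinking enzyme Tgm5 differed by 0.23 ± 0.06 (SE). Among junction genes the scaffold Tjp1 averaged 219 ± 12.7 CPM in OVXE2 and 180 ± 22.01 CPM in OVX, and Cldn3, a tight junction claudin that glands also make, averaged 9.31 ± 4.22 CPM in OVXE2 and 3.70 ± 1.83 CPM in OVX. Cldn3 was highest in OVXE2 3 and OVXE2 4, the OVXE2 libraries with the most gland transcripts, and its part in the difference was not tested. Of the junctional epithelium, which seals the gum to the tooth, Ceacam1, an adhesion molecule, had 122 to 160 CPM in OVXE2 and 85.3 to 120 CPM in OVX, and Odam, a protein of its attachment to enamel, had 187 to 308 CPM in OVXE2 and 316 to 348 CPM in OVX, differing by -0.41 on the log2 scale and by -0.25 with muscle level in the fit. The growth factor receptor Erbb3 averaged 188 ± 10.8 CPM in OVXE2 and 162 ± 7.65 CPM in OVX (SD, n = 4 each), without overlap.

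In the lists of collagens and matrix, endothelium and cell cycle, no gene separated the groups. Of 44 collagen and matrix genes 36 had a log2 change below 0 (median -0.17) and in none did the groups separate. Col1a1 had 2138, 4515, 2307 and 3854 CPM in OVXE2, against 2760, 5635, 3984 and 2959 CPM in OVX; it varied about as much within each group as between them. Without OVX 2, the median of the list was 0.01. Fmod, a small proteoglycan of collagen fibrils, differed by -0.80 and Thbs1, an adhesive glycoprotein, by 0.73, both with overlap. The basement membrane collagen Col4a3, at low level, averaged 1.02 ± 0.304 CPM in OVXE2 and 0.397 ± 0.161 CPM in OVX, with OVXE2 1 (0.621 CPM) just inside OVX 2 (0.636 CPM). Endothelial genes (37 tested) had a median of -0.004 and cell cycle genes (54 tested) one of -0.003. Vwf, the clotting factor of endothelium, differed by 0.54 ± 0.22 (SE), and by 0.35 with muscle level in the fit, and the cyclin Ccnd1 by -0.24 ± 0.09 (SE), with overlap.

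No neutrophil gene and no cytokine of periodontitis passed the test. Of 21 neutrophil genes 18 had a log2 change above 0 (median 0.26, 0.05 without OVXE2 2 and 0.53 without the 2 muscle-richest libraries), with none above without overlap and 1 (4.76%), the Fc receptor gene Fcgr4, below. The alarmin S100a8 had 1286, 903, 1149 and 1054 CPM in OVXE2, against 1199, 1096, 958 and 1282 CPM in OVX. The collagenase of neutrophil granules, Mmp8, had 2.11, 6.24, 2.46 and 6.41 CPM in OVXE2 and 1.04, 2.54, 1.67 and 2.20 CPM in OVX, differing by 1.21 ± 0.42 on the log2 scale (SE; edgeR adjusted p = 0.305). The chemokine receptor Cxcr1 differed by 1.49 ± 0.48 (SE), with OVXE2 2 the highest.

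Among 25 cytokine genes 14 were above 0 and 11 below, and 1 (4%), Il23a, a subunit of interleukin-23, lay below without overlap, at 0.869 to 1.396 CPM in OVXE2 and 1.43 to 2.08 CPM in OVX. Il1b averaged 80.9 ± 49.2 CPM in OVXE2 and 63.5 ± 28.4 CPM in OVX (95% interval of the log2 change -0.63 to 1.33). Il6 differed by 0.32 with a 95% interval of -1.26 to 1.90, and the prostaglandin synthase Ptges by 0.20 with one of -0.01 to 0.40. Without the 2 muscle-richest libraries the log2 change was 0.83 for Il1b, 0.67 for Il6 and -0.35 for Il23a, against 0.35, 0.32 and -0.53 with all libraries. The neutrophil chemokine Cxcl2 had 12.3, 31.6, 32.3 and 25.7 CPM in OVXE2 and 26.0 to 26.9 CPM in OVX. Tnfsf11, which encodes RANKL, had 3.19, 9.06, 3.33 and 4.46 CPM in OVXE2, against 2.68, 7.00, 4.25 and 5.74 CPM in OVX, differing by 0.03 on the log2 scale (95% interval -0.94 to 1.00). The collagenase Mmp13 had 203 to 479 CPM in OVXE2 and 211 to 489 CPM in OVX. Ocstamp, needed for fusion of osteoclasts, differed by -0.63 ± 0.22 (SE) near 2 CPM. Tnf and the RANKL decoy receptor gene Tnfrsf11b were not analysed here.

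The response of gingiva to estradiol was then set against that of the DAC in 1 fit of all 24 libraries. Of 14209 genes, 27 differed between the tissues at an adjusted p under 0.05: 17 with a positive difference, gingiva minus DAC (0.12%), and 10 with a negative one (0.0704%). In 1 DAC library, OVX 1, the secreted-protein gene Bpifb9b took the largest share of counts (9.43%), where Col1a1 led in the other 11 DAC libraries; without it the numbers were 13 and 10. All 27 were among the 334 genes called in the DAC in this fit (104 higher, 0.732%, and 230 lower, 1.62%), while in gingiva the smallest adjusted p of the same fit was 0.0692. With the 24 libraries scaled together, the channel gene Trpc6 had 1.59 ± 0.123 CPM in OVXE2 and 1.54 ± 0.188 CPM in OVX gingiva, and 31.2 ± 5.90 CPM in OVXE2 and 5.79 ± 1.29 CPM in OVX DAC (SD, n = 4 each). Its log2 change was 0.05 in gingiva and 2.43 in the DAC, a difference of -2.38 ± 0.26 (SE; edgeR adjusted p = 6.05e-05). The protease inhibitor gene Pi15 had changes of 0.21 in gingiva and 3.35 in the DAC, a difference of -3.14 ± 0.39 (SE; adjusted p = 0.000387). The progesterone receptor gene was the more abundant in gingiva but differed little there: Pgr stood at 27.0 ± 4.45 CPM in OVXE2 and 23.7 ± 3.16 CPM in OVX gingiva, and at 4.07 ± 1.78 CPM in OVXE2 and 0.775 ± 0.381 CPM in OVX DAC. The difference between its changes was -2.20 ± 0.45 (SE; adjusted p = 0.0444, up to 0.123 over the alternatives).

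Of the genes lower with estradiol in the DAC, the B cell gene Fam129c stood at 2.29 ± 0.290 CPM in OVXE2 and 2.63 ± 0.285 CPM in OVX gingiva, and at 2.89 ± 0.682 CPM in OVXE2 and 19.8 ± 2.47 CPM in OVX DAC, a difference of the log2 changes of 2.58 ± 0.28 (SE; adjusted p = 6.05e-05). The progenitor transcription factor Myb had changes of -0.04 in gingiva and -2.18 in the DAC. The peptidase Dpp4 had 0.32 and -1.81, and the interferon-inducible DNA sensor Ifi209 -0.08 and -1.58. A2m, the protease inhibitor alpha-2-macroglobulin, had 1.04 in gingiva, at about 1 CPM, and 3.62 in the DAC (adjusted p of the difference 0.0411, up to 0.168 over the alternatives). Aldh1a2, which makes retinoic acid, had 0.40 and 1.49, a difference that did not pass (adjusted p = 0.123). The interferon response was not shown to differ. Of the 35 list members, 34 were below 0 in gingiva and 29 in the DAC in this fit, with medians of -0.65 and -0.39. In the test of the difference 0 passed (2 at an unadjusted p under 0.05, against 8.81% of all genes). In the DAC, Cxcl9 changed by -3.38 (edgeR adjusted p = 0.00892), Cxcl10 by -2.57 (0.00883), Gbp2 by -1.735 (0.00672) and Igtp by -1.41 (0.0106). Tgtp1, at -1.55 (0.0566), and Isg15, at 0.08 (0.987), did not pass there.

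**Figure D5:**
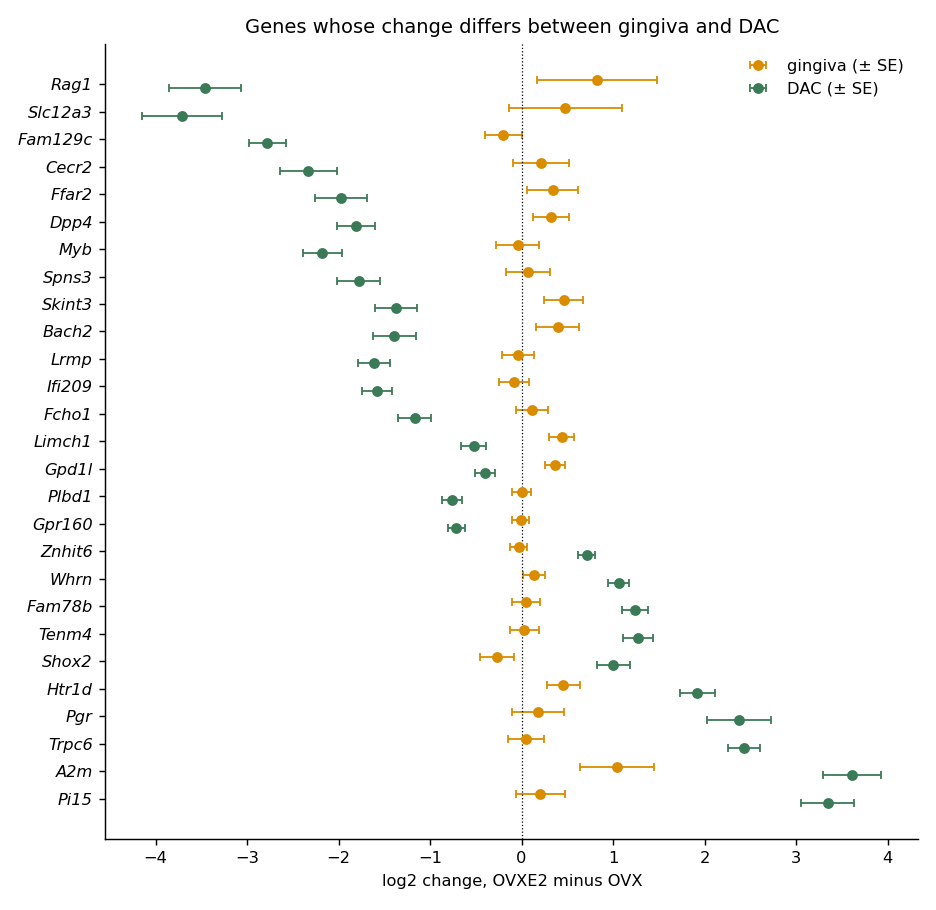
Log2 change between OVXE2 and OVX (x axis, ± SE) in gingiva and in the DAC for the 27 genes (y axis) whose change differed between the tissues at an adjusted p under 0.05. The gingiva values lie near 0 for most genes, as for Trpc6 with 0.05, while those of the DAC range on both sides, as for Pi15 with 3.35.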

How the data were processed

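Per the file layout and the labels, the deposited tables hold raw read counts per gene, unstranded and for each strand, and the strand with most reads was used as deposited. The submitters' processing notes name fastp, STAR and DESeq2 with GRCm38 (mm10); no settings are given in these sources. Of 38321 gene IDs, 38186 were named with GENCODE M21. The 4 lines of reads assigned to no gene were left out; reads in no feature were 29.01 to 32.18% in gingiva.

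Counts were tested with edgeR 4.0.16 in R 4.3.3: filterByExpr (minimum count 10), TMM scaling and the robust quasi-likelihood test over the 12 gingiva libraries, with Benjamini-Hochberg adjustment over all genes tested. The tissue difference was an interaction in a fit of all 24 libraries. CPM values use TMM library sizes. Alternatives included limma 3.58.1 and DESeq2 1.42.0, other scalings and filters, and each library left out. The code was tested on simulated data.

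Genes were named by smallest p in each direction, by smallest p within each list, or from a fixed panel; further list members were named after their values were seen, and some genes are not reported here. Members and lists were chosen with earlier results of these data known.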

Additional observations from a re-analysis of the deposited data

Results flagged for a closer look

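Among 93 named genes, 1 library stood apart from the other 3 of its group by Dixon's test in 14 of 186 groups, where chance gives about 1 in 20. In OVXE2, replicate 1 was low for Cxcl16 (27.9 CPM) and high for Insig1 (118.9 CPM). Replicate 2 of OVXE2 was high for the gland gene Bpifb1 (10.02 CPM) and for Trpc6 (1.69 CPM), and replicate 4 was low for Tjp1 (199.9 CPM). In OVX, replicate 2 was high for Col4a3 (0.636 CPM) and low for Erbb3 (150.5 CPM), Arg1 (1134 CPM), Muc5ac (0.053 CPM) and Pgr (18.3 CPM). Replicate 3 of OVX was low for Mt1 (162.1 CPM) and high for the muscle gene Ampd1 (3.98 CPM) and for A2m (1.27 CPM), and replicate 4 was high for Sprr2a1 (2.74 CPM).

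The summed share of the interferon list was high in OVX 1 (0.0977%), against 0.0783 to 0.0804% in the other OVX libraries. That of the glycolysis and hypoxia list was high in OVX 2 (0.916%).

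The change with estradiol differed between gingiva and the DAC, by the test of the difference in the 24-library edgeR fit, for 8 named genes. The log2 change in gingiva minus that in the DAC was 2.58 for Fam129c, 2.14 for Dpp4, 2.14 for Myb and 1.496 for Ifi209. It was -3.14 for Pi15, -2.57 for A2m, -2.38 for Trpc6 and -2.20 for Pgr.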

How the results depend on the processing

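Between OVXE2 and OVX in gingiva, DESeq2 called 52 genes higher and 46 lower, edgeR without a low-count filter called 2 higher (Pgm1 and Sv2b), and leaving out 1 library gave 0 to 11 higher and 0 to 49 lower, with the highest counts without OVX 3. limma-voom called 0, with 1688 at an unadjusted p under 0.05. For the tissue difference, DESeq2 called 69 positive and 42 negative, no filter gave 6 negative, and leaving out 1 library gave 10 to 26 positive and 5 to 13 negative. The causes were not tested.

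By list, DESeq2 called 14 interferon genes, 4 chemokine genes and 3 chaperones lower, and 3 glycolysis and 2 cholesterol genes higher. It called 1 T and NK gene lower, 1 macrophage and 1 dendritic cell gene in each direction, and 1 gene higher in each of the junctional epithelium, RANKL, growth factor and nerve lists. Leaving out 1 library called 0 to 10 ribosomal, 0 to 2 interferon, 0 to 2 chaperone, 0 to 2 glucocorticoid-responsive and 0 to 1 chemokine genes lower, and 0 to 1 macrophage, 0 to 1 dendritic cell and 0 to 1 glycolysis genes higher.

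Same-numbered OVXE2 and OVX libraries did not deviate together (correlations -0.044, -0.061, 0.02 and -0.531). The labels do not say whether equal numbers mark paired samples, and these correlations cannot exclude it. The main fit used no pairing. With the replicate block, edgeR called 2 genes lower, Cxcl9 and Cxcl10, which are 2 of the interferon list and 2 of the chemokine list.

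Of 2503 values of 93 named genes under the alternatives, 2428 kept direction and side of the threshold, 47 passed it and 28, of 8 genes, changed sign. No gene had passed the main test, so a kept side of the threshold means only that the value did not pass. With muscle level in the fit, chosen after the data were seen, the log2 change was -0.33 for Esr1, -0.42 for Il6, 0.063 for S100a8, 0.082 for Cxcl2 and -0.064 for Aldh1a2. Without the 2 muscle-richest libraries it was -0.069 for Esr1 and 0.27 for Cxcl2. Without the 4 libraries of low other-strand share it was -0.54 for Il6, -0.25 for Tnfsf11, 0.016 for S100a8 and 0.13 for Cxcl2. limma-voom gave -0.031 for Il6 and -0.003 for Tnfsf11, and the replicate block -0.088 and -0.051. Leaving out 1 library gave -0.04 to 0.22 for Esr1, -0.14 to 0.63 for Il1b, -0.50 to 0.63 for Il6, -0.42 to 0.24 for Tnfsf11, -0.131 to 0.036 for S100a8, -0.19 to 0.17 for Cxcl2, -0.03 to 0.11 for Trpc6 and -0.325 to 0.006 for the median of the matrix list. At this depth, genes with a few counts, such as Ifng, could not be compared.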
